A study of Mus musculus with 30 samples.

Results

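Distal regions bound by all 4 remodelers are stretches of the mouse genome, away from gene starts and from CTCF, where CHD4, CHD8, SMARCA4 and SMARCA5 were each called in both replicates of untreated cells. Peaks of the 8 remodeler lists at 0 h on chromosomes 1 to 19 and X were merged where they overlapped by at least 1 bp, which gave 186686 regions. Of these, 158468 lay more than 1 kb from every CTCF peak at 0 h, and 11440 of those held a peak in all 8 lists. Among these, 4938 lay more than 1 kb from every annotated start site and are the distal regions described here. The other 6502, with a start site inside or within 1 kb, are called promoter regions and serve as the comparison. The 0 h lists chose the regions, so 0 h values at them are a description and were not tested. The 12 h lists took no part in the choice.

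The study used chromatin immunoprecipitation and sequencing in E14 mouse embryonic stem cells whose CTCF carries an auxin-inducible degron (CTCF AID), a tag that lets the auxin IAA direct the protein to the proteasome. CTCF and the cohesin subunit SMC1A were profiled in CTCF AID cells, with a single library from untreated cells (0 h) and 1 from cells kept in IAA for 12 h. Each remodeler was profiled in CTCF AID cells that also carried a biotin tag on that remodeler (biotin-CHD4, biotin-CHD8, biotin-SMARCA4 or biotin-SMARCA5), with 2 libraries at 0 h and 2 at 12 h. All groups therefore share the degron allele, and all cells grew without serum, with LIF, PD0325901 and CHIR99021. The labels do not say whether replicates were separate cultures or how many clones each line represents, so p-values measure only the spread between these libraries.

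CHD4 is the ATPase of the NuRD complex, which couples nucleosome sliding to histone deacetylation. SMARCA4, also called BRG1, is the ATPase of the BAF complexes that open chromatin at enhancers in stem cells, SMARCA5, also called SNF2H, is the ATPase of the ISWI complexes that space nucleosomes, and CHD8 is a CHD-family ATPase known for binding at active promoters. LIF acts through STAT3, PD0325901 blocks MEK and CHIR99021 blocks GSK3, and together they hold mouse stem cells in a naive state run by factors such as OCT4, SOX2, NANOG, ESRRB, KLF4 and TBX3.

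The sequences below are the 300 bp at the centre of 9 distal regions, where the centre is the median of the 8 strongest summits at 0 h. They show the strongest region beside each of 4 genes for pluripotency factors, 3 of the regions with the highest ranks at 0 h, and 2 of those with the fewest peaks at 12 h, each named by its nearest protein-coding gene. Capitals mark matches, on either strand, to any of the 15 motifs listed after them.
Sox2, chr3:34745146-34745445, GRCm38, + strand: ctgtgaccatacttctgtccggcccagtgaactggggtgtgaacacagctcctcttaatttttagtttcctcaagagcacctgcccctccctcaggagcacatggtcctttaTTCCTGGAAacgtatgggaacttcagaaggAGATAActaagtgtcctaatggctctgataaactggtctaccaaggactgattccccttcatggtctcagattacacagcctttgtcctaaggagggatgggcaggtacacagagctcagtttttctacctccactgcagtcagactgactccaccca
Klf4, chr4:55475914-55476213, GRCm38, + strand: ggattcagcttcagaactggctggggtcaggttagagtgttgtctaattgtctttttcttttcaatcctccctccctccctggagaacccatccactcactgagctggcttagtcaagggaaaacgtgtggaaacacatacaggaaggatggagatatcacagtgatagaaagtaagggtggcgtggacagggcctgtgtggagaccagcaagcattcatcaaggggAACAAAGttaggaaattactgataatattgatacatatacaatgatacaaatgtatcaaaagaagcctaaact
Esrrb, chr12:86464565-86464864, GRCm38, + strand: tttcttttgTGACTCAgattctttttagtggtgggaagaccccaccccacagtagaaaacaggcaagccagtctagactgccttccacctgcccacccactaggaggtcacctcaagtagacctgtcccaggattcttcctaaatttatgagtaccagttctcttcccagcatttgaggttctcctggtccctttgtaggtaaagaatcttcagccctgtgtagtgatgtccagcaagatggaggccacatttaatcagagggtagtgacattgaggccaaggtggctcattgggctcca
Tbx3, chr5:119374236-119374535, GRCm38, + strand: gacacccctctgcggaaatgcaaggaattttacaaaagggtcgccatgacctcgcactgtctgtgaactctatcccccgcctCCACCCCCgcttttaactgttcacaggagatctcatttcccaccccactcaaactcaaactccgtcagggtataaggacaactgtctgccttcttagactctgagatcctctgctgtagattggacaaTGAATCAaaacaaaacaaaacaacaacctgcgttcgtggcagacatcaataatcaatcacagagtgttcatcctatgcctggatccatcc
Ptma, chr1:86489159-86489458, GRCm38, + strand: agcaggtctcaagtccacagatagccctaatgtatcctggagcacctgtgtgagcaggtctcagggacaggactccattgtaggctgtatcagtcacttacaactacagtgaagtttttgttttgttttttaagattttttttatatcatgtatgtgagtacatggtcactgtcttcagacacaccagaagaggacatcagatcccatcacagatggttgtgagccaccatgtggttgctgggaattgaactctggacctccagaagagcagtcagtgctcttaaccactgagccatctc
Slc2a3, chr6:122765918-122766217, GRCm38, + strand: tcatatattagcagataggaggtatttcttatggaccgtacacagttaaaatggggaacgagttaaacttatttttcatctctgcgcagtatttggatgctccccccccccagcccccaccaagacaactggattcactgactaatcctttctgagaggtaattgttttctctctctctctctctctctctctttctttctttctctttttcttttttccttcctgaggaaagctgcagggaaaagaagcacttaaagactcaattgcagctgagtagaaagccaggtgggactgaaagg
Susd2, chr10:75649304-75649603, GRCm38, + strand: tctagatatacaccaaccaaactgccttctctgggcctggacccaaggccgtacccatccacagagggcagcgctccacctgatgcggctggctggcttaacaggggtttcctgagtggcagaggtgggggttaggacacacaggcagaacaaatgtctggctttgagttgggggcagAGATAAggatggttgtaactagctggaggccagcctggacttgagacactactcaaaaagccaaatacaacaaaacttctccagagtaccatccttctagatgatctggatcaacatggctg
Itsn1, chr16:91736519-91736818, GRCm38, + strand: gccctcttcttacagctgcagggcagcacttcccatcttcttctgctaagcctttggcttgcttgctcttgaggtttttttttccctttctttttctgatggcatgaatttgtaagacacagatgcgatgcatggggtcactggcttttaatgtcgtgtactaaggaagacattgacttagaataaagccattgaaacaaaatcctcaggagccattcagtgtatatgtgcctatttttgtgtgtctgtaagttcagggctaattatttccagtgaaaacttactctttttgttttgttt
Zfp157, chr5:138464245-138464544, GRCm38, + strand: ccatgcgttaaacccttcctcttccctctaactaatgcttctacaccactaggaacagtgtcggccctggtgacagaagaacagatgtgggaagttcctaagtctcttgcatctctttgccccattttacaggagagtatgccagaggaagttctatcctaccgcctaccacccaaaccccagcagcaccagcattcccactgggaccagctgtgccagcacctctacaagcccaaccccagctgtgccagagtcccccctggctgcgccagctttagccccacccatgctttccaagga
Of the 15, 3 are longer degenerate elements, the OCT4-SOX2 composite, the paired half-sites of TFCP2L1 and the core of the motif of CTCF, and match none of these 9 windows. Of the others, with N for any base, the octamer bound by OCT4 was searched as ATGCAAAT, and the elements of ESRRB and NR5A2 as TCAAGGTCA and TCAAGGCCA. SOX factors were represented by CNTTGTT. The KLF element was GGGNGTGG and the GC box of SP factors GGGGCGGGG. STAT3 was searched as TTCCNGGAA and ETS factors as CCGGAAGT. For the AP-1 factors that answer growth signals the letters were TGANTCA. The TEAD factors of the Hippo pathway were represented by ACATTCC. The element of GATA factors, which are known for endoderm and blood, was AGATAA. The E-box bound by MYC and its relatives was CACGTG. Part of the octamer is shared with the composite. The Sox2 window holds a STAT3 and a GATA match and the Tbx3 window a KLF and an AP-1 match. The Ptma, Slc2a3, Itsn1 and Zfp157 windows hold none of the 15 motifs.

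The distal regions are broad. Their median width was 2523 bp, with a range of 300 to 26525 bp, against 335 bp for the 131169 distal regions that held 1 to 7 of the lists. Promoter regions had a median width of 2218.5 bp and distal regions with 7 of the 8 lists 1702.5 bp, so breadth was not particular to this class. Each region is a union of merged peaks and had to hold all 8 lists, so the choice itself favours wide regions. The gap to regions with 1 to 7 lists is therefore partly built in and was not tested. The widest distal region has its centre in an intron of Etv5, which encodes an ETS factor downstream of FGF signalling. The centre fell in an intron for 48.3% of the distal regions, between genes for 46.9%, in a coding or non-coding exon outside UTRs for 2.98% and in a UTR for 1.78%. The nearest protein-coding start site was a median of 22939.5 bp away. It lay within 10 kb for 28.4% of them and beyond 50 kb for 28.4%. Chromosome X held 44 of the distal regions (0.891%), although it makes up 6.49% of the bases searched. The X share was as low in promoter regions (0.831%) and was 1.44% in distal regions with 1 to 7 lists.

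Bound by all 4 does not mean bound at 1 point. At 45.9% of the regions (2268), all 8 lists had a peak over the same 200 bp at the centre, and the range of the 8 strongest summits had a median of 953 bp. Summits of CHD4, CHD8 and SMARCA4 lay close to each other, with median distances between libraries of different remodelers of 173 to 231 bp. Replicates of 1 remodeler differed by medians of 145 bp for CHD4, 89 bp for CHD8 and 112 bp for SMARCA4. SMARCA5 summits lay 388 to 447 bp from those of the other remodelers. Its own replicates differed by 289 bp, so the position of SMARCA5 within these regions was also the least well fixed.

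GC content at the centres had a median of 50.0%, against 66.3% in promoter regions, 48.7% in distal regions with fewer lists, and 45.3% in the same windows moved by 100 kb. The ratio of observed to expected CpG was 0.237 in distal and 0.807 in promoter regions. High ratios are typical of CpG islands, which mark many mouse promoters. On average 21.6% of a distal window was repeat-masked.

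Most of the 15 elements were more frequent at the distal centres than in the moved windows, among them elements known from pluripotency enhancers and others. The OCT4-SOX2 composite occurred in 0.830% of distal windows, 0.448% of distal windows with fewer lists, 0.169% of promoter windows and 0.223% of moved windows. The ESRRB half-site occurred in 3.24%, 2.06%, 0.754% and 0.955% of the same 4 classes. For KLF the shares were 19.7%, 15.3%, 19.9% and 8.72%, so promoter regions held it as often. The SOX element was found in 23.0%, 18.2%, 8.98% and 16.8% of windows. These shares move with base composition, whose part was not tested. GATA went the other way, with 11.4% of distal against 16.5% of moved windows. Elements of widely expressed factors were also more frequent than in moved windows. The GC box, bound by SP factors, was in 3.16% of distal, 0.731% of moved and 13.5% of promoter windows. The ETS element was in 1.05% of distal and 0.264% of moved windows. For the E-box these shares were 6.95% and 3.86%, for TEAD 7.11% and 4.12%, and for AP-1 10.5% and 9.14%. The CTCF core was in 2.09% of distal windows, close to the 2.40% of moved windows and below the 7.26% of distal regions with fewer lists. All of these regions lay more than 1 kb from CTCF peaks at 0 h.

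**Figure D1:**
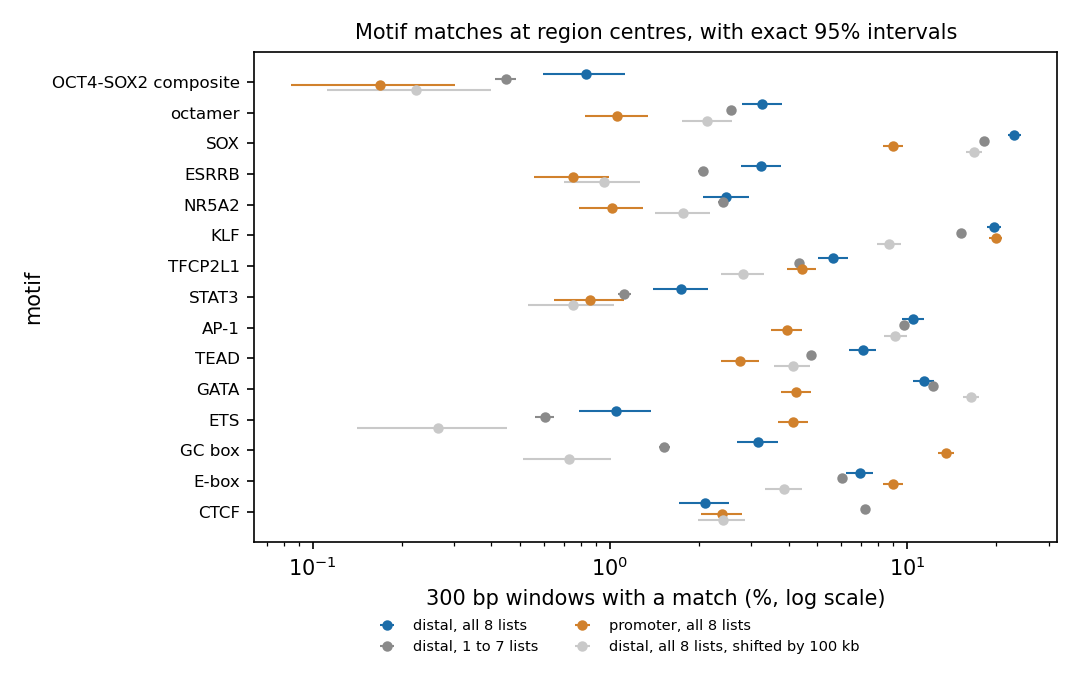
Share of 300 bp windows with a match to each of 15 motifs (log axis, in %), in 4 classes of windows, with exact 95% intervals for counting error. Distal regions with all 8 lists (blue) lie to the right of moved windows (light grey) for the composite, ESRRB, KLF, ETS and GC box elements and to the left for GATA.

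After 12 h of IAA the remodelers were still called at almost all distal regions. For CHD4 a 12 h peak was present at 99.1% of them in replicate 1 and 96.5% in replicate 2 (97.8% ± 1.82, SD, n = 2). SMARCA4 had 99.4% and 99.5% (99.4% ± 0.0716, SD, n = 2). CHD8 had 96.7% and 92.0% (94.4% ± 3.32, SD, n = 2). SMARCA5 had 95.3% and 90.2% (92.7% ± 3.61, SD, n = 2). The mean over the 8 libraries was 96.1%. SMARCA4 libraries were above all others, and the CHD8 and SMARCA5 libraries overlapped. A difference between remodelers was not called by a one-sided exact permutation test of the variance of their 4 means (9.48 squared percentage points, p = 0.181, adjusted p = 0.226 over the 5 tests made).

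Every 0 h share is 100% by the choice of regions, so these values cannot be read as a loss from 100%. When the choice was repeated without 1 of the 0 h lists, that list itself had a peak at 97.1% to 99.5% of the regions for the CHD4 and SMARCA4 libraries. For CHD8 the left-out lists reached 91.1% (replicate 1) and 77.9% (replicate 2), and for SMARCA5 81.1% and 92.2%. At the regions chosen without CHD8 replicate 2, the 12 h CHD8 lists had 92.6% and 84.0%, both above the left-out 0 h library, and without SMARCA5 replicate 1 the 12 h SMARCA5 lists had 91.0% and 85.1%, also above. Without CHD8 replicate 1 they had 94.2% and 89.0%, and without SMARCA5 replicate 2 they had 93.1% and 88.1%, to either side of the left-out library. Both 12 h CHD4 lists were below the left-out CHD4 replicate 1, at 98.9% and 96.1% against 99.0%. Without CHD4 replicate 2 they had 98.9% and 95.9%, to either side of the left-out 98.0%. Without SMARCA4 replicate 1 the 12 h SMARCA4 lists had 99.3% and 99.5% against the left-out 99.5%. Without SMARCA4 replicate 2 they had 98.7% and 99.4%, both above the left-out 97.1%.

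A peak in all 8 of the 12 h lists was present at 3851 of the 4938 distal regions, or 78.0%, and the background over all CTCF-free regions with 8 lists at 0 h was 82.1%. A further 753 regions held 7 lists, 248 held 6, 55 held 5, 27 held 4 and 4 held 3. No region held fewer. Both 12 h lists of a remodeler lacked a peak at 28 distal regions for CHD4, where the background among CTCF-free regions with both 0 h lists is 12.4%. The number was 83 for CHD8 (background 5.4%), 9 for SMARCA4 (background 3.48%) and 91 for SMARCA5 (background 6.71%). As shares of the distal regions these are 0.567%, 1.68%, 0.182% and 1.84%, each below its background. That background includes regions with fewer than 8 lists at 0 h. In promoter regions, which also held all 8, the shares were 0.461%, 0.123%, 0.0923% and 0.877%, each below the distal share. At 4744 of the distal regions no remodeler was missing from both of its 12 h lists.

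Distal and promoter regions were then compared within each 12 h library. The promoter shares were 99.2% and 96.7% for CHD4, 99.8% and 98.3% for CHD8, 99.5% and 99.5% for SMARCA4, and 97.5% and 91.1% for SMARCA5. The distal share was lower in 7 of 8 libraries, by 1.60 points on average (a difference of −1.60). The two-sided exact sign-flip permutation test gave p = 0.0156 and an adjusted p of 0.0781, so the difference did not pass after adjustment. The test took the 8 libraries as independent, although they are 2 from each of 4 remodelers. Its p therefore does not measure the spread between remodelers. CHD8 had the widest gaps, −3.08 and −6.28 points. For CHD4 and SMARCA4 all 4 gaps were at most 0.15 points in size. With peaks of −log10 q of at least 5 alone the mean difference was +0.489 points (two-sided exact permutation p = 0.828), so its direction depends on this threshold, and without CHD8 12 h replicate 2 it was −0.936 points.

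**Figure D2:**
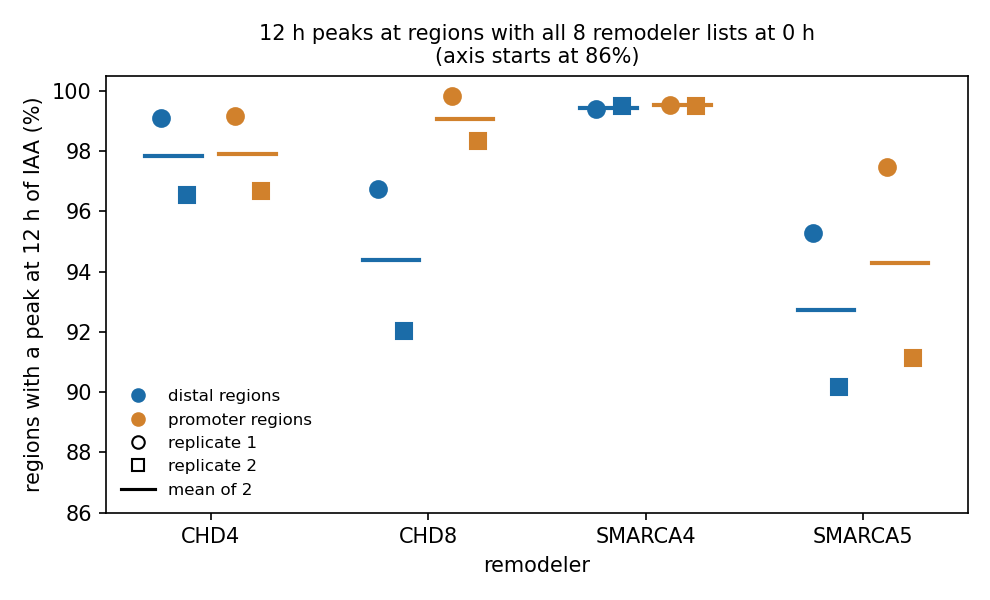
Share of regions with a peak after 12 h of IAA (y axis, %, not starting at 0) for each remodeler, in distal (blue) and promoter (orange) regions; circles are replicate 1, squares replicate 2 and bars the mean of 2. Distal CHD8 libraries, at 96.7% and 92.0%, lie below both promoter CHD8 libraries, while SMARCA4 stays above 99% in both classes.

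To compare 0 h with 12 h without the constraint of the choice, regions were chosen for each remodeler from the 12 lists of the other 3. The rule again asked for a peak in all of these lists and more than 1 kb to CTCF peaks and start sites. This gave 3913 distal regions for CHD4, 6704 for CHD8, 4112 for SMARCA4 and 5836 for SMARCA5. Of these, 95.6%, 58.9%, 91.9% and 69.8% in the same order overlapped 1 of the 4938 regions, so the CHD8 and SMARCA5 sets hold many other regions. CHD8 had a peak at 74.7% and 65.3% of its regions at 0 h and at 84.8% and 75.8% at 12 h. The means were 70.0% ± 6.70 and 80.3% ± 6.36 (SD, n = 2 each), a difference of 10.3 points, and the libraries of the 2 times did not overlap, though the higher 0 h and the lower 12 h library were about 1 point apart. SMARCA5 had 76.5% and 85.1% at 0 h against 87.97% and 83.3% at 12 h, which overlap. CHD4 had 99.2% and 98.4% against 99.3% and 97.5%, and SMARCA4 had 99.2% and 98.2% against 99.2% and 99.6%, so both stayed near the ceiling.

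Over the 4 remodelers the change from 0 h to 12 h was +3.83 points, with a pooled SD of 4.12 points between single replicate libraries. The two-sided exact stratified permutation test over 1296 relabellings gave p = 0.114 and an adjusted p of 0.190. No change in distal occupancy after CTCF loss was therefore called, in either direction. Within 1 remodeler, 2 libraries against 2 are too few for an exact permutation test to pass, and the CHD8 values stand as a description. At promoter regions chosen the same way the change was +1.06 points. The distal change exceeded the promoter change by 2.77 points (two-sided exact stratified permutation p = 0.0617, adjusted p = 0.154), which did not pass either. The lists carry 2 styles of peak name. Among libraries named target first the distal change was +4.01 points and the excess over promoters 3.01, and among those named time first, which cover both times for SMARCA4 and SMARCA5 only, the values were +1.95 and 0.11 (exact permutation p = 0.222, 0.0278, 0.5 and 1). CHD8 at promoters had 97.5% and 95.9% at 0 h and 98.3% and 96.1% at 12 h, which overlap.

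**Figure D3:**
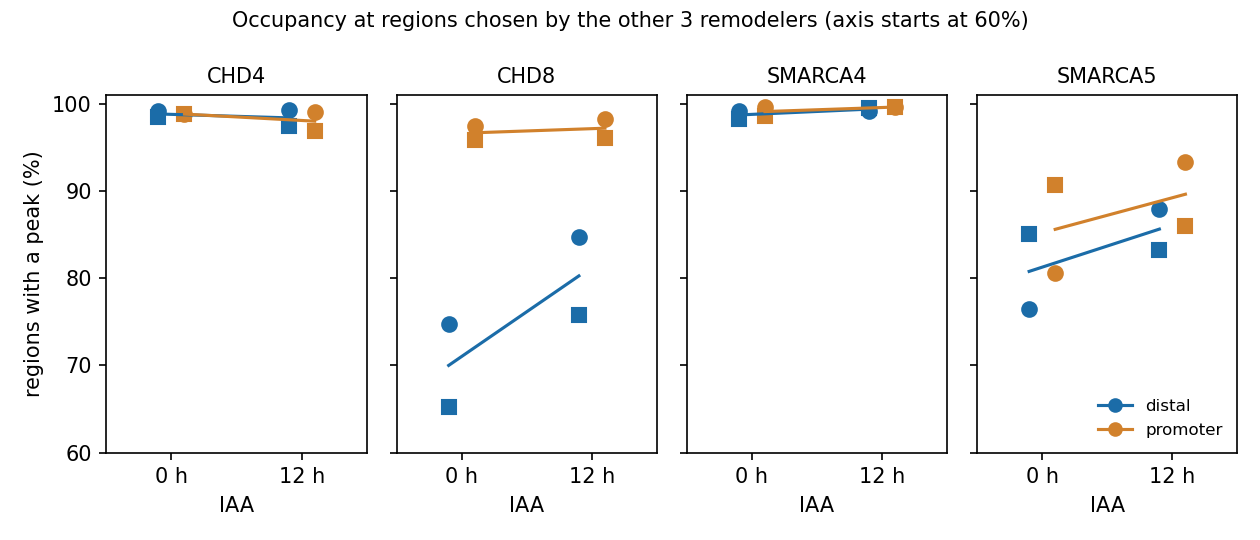
Share of regions with a peak (y axis, %, starting at 60%) at 0 h and 12 h of IAA, in 4 panels for the 4 remodelers, at distal (blue) and promoter (orange) regions chosen by the lists of the other 3; circles are replicate 1, squares replicate 2 and lines join the means. Distal CHD8 moves from 70.0% to 80.3%, while every CHD4 and SMARCA4 library lies at 96.9% or above.

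CHD8 also stood apart in the rank of its peaks. Peaks of each list were ordered by −log10 p, and the rank of a region is the percentile that its strongest peak takes in that order, where 100 is the strongest. A region without a peak in a list has no rank there and is left out of the medians of that list. The lists differ in length, and more weak peaks in a list raise the ranks of its others. Ranks therefore compare regions within a library, and remodelers are not on the same scale. At 12 h the median rank of CHD8 was 64.9 and 58.8 at distal regions against 87.9 and 84.7 at promoter regions. SMARCA4 had 92.5 and 93.4 at distal against 84.0 and 83.5 at promoter regions, the opposite order. CHD4 had 88.3 and 89.6 against 85.5 and 88.9, and SMARCA5 83.3 and 82.7 against 81.3 and 78.1. Distal minus promoter was thus negative in both CHD8 libraries and positive in the other 6. Its mean over the 8 libraries was −2.55 percentile points (two-sided exact sign-flip permutation p = 0.594, adjusted p = 0.594). That mean combines opposite directions, and without CHD8 12 h replicate 1 or 2 it was +0.371 or +0.794.

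In the 0 h lists, which chose the regions, CHD8 was also lower at distal regions, with 61.3 and 50.8 against 87.6 and 83.7 at promoter regions. The distal median was the higher one in the other 0 h libraries except CHD4 replicate 2, with 90.3 against 90.6. At the regions chosen by the other 3 remodelers, where no CHD8 list was used, CHD8 peaks had median ranks of 56.3 and 50.0 at 0 h and 57.9 and 53.4 at 12 h in distal regions. The matching promoter ranks were 87.2, 83.4, 87.4 and 84.0. All 4 CHD8 libraries were therefore lower at distal regions, with or without their own lists in the choice. At the regions chosen by the other 3 remodelers, these medians cover only regions with a CHD8 peak. Such regions were 65.3% to 84.8% of the distal and 95.9% to 98.3% of the promoter regions, depending on the library.

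**Figure D4:**
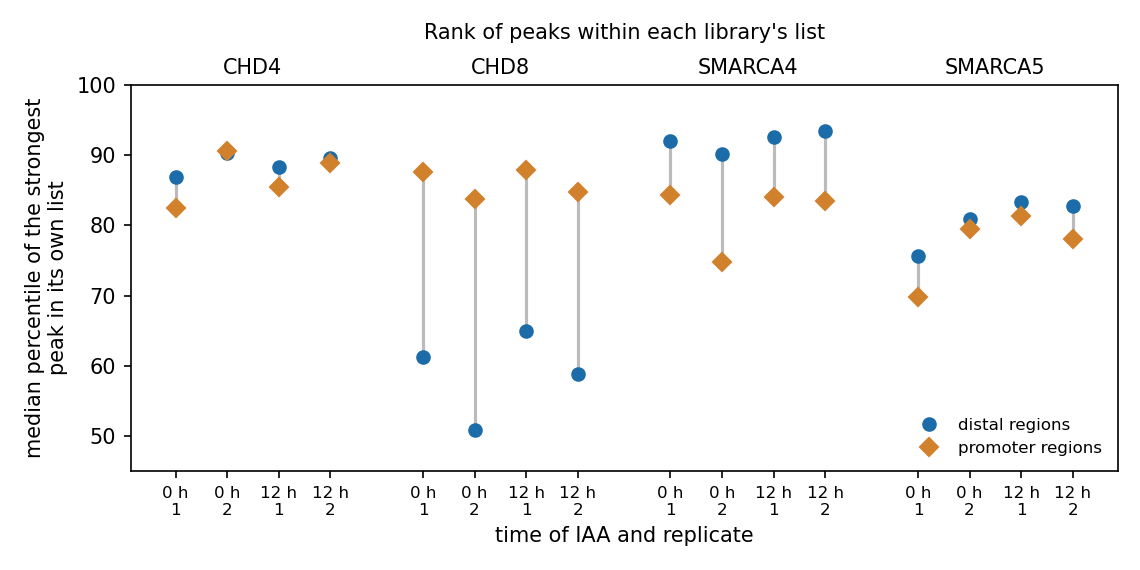
Median percentile of the strongest peak within the library's own list (y axis) in 16 libraries, at distal (blue circles) and promoter (orange diamonds) regions with all 8 lists at 0 h. CHD8 has distal medians of 50.8 to 64.9 below promoter medians of 83.7 to 87.9, while SMARCA4 has distal medians above promoter medians in all 4 libraries.

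Which distal regions kept all lists was tied to their width and rank at 0 h. In 4 classes of equal size, from the narrowest to the widest regions, all 8 of the 12 h lists were present at 54.7%, 74.0%, 87.8% and 95.4% of regions. In 4 such classes from the lowest to the highest mean 0 h rank the shares were 48.7%, 74.7%, 90.3% and 98.3%. A wide region has more bases that a peak can overlap, and regions of higher rank were wider, so the measures are not separate. In the narrowest class SMARCA5 12 h replicate 2 reached 75.1%, the lowest of the libraries there. When a peak had to overlap the central 200 bp, 12 h shares were 96.6% and 82.0% for CHD4, 91.7% and 82.9% for CHD8, 97.7% and 98.3% for SMARCA4, and 78.8% and 56.6% for SMARCA5. By the same measure SMARCA5 had 67.5% and 77.0% at 0 h, so its times overlapped. The CHD4 12 h lists differ in median peak width, with 475 bp in replicate 1 and 94 bp in replicate 2. The part of peak width in these central shares was not tested.

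Distal regions near and far from CTCF had similar 12 h shares. All 8 of the 12 h lists were present at 77.9% of the 918 distal regions 1 to 5 kb from a CTCF peak, 78.3% of the 1776 at 5 to 20 kb, 79.3% of the 1204 at 20 to 50 kb and 76.0% of the 1040 farther away. The largest departure by remodeler was CHD8, with a mean 12 h share of 94.99% in the nearest and 92.9% in the farthest class. It had the same direction in both libraries, from 96.7% to 95.5% in replicate 1 and from 93.2% to 90.4% in replicate 2, and was not tested.

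Cohesin was called at a minority of the distal regions. An SMC1A peak at 0 h overlapped 575 of them, or 11.6% (exact Clopper-Pearson 95% interval 10.8% to 12.6%, for counting error only). The share was 13.7% in promoter regions and 0.397% in distal regions with 1 to 7 lists. Over the central 200 bp, which removes the difference in width, it was 8.53%, 9.75% and 0.329%. In the same regions moved by 100 kb and kept where they were more than 1 kb from CTCF peaks it was 1.08%. Most of these SMC1A peaks were weak: with −log10 q of at least 5 the distal share was 3.79%, and that of the CTCF-free moved regions 0.435%. Regions with SMC1A kept all 8 of the 12 h lists at 92.9%, against 76.0% without, but were also wider (medians of 3455 and 2418 bp), and the part of width in this was not tested. After 12 h of IAA the SMC1A list held 10 peaks in all, of which 2 of the distal regions had one, and 1 distal region held a CTCF peak at 12 h. SMC1A and CTCF have 1 library per time, so their differences have no replicate check.

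The nearest protein-coding genes of the distal regions numbered 3226 of 21728, a background of 14.8%, and they included much of the naive pluripotency network. Among 4 core factors, Sox2 had 3 distal regions, Sall4 had 2 and Nanog 1, while Pou5f1, which encodes OCT4, had none. Of 14 naive state factors 11 had at least 1: Tbx3 had 10, Klf5 6, Prdm14 and Zfp281 4 each, Esrrb, Klf2, Zfp42 and Gbx2 3 each, Klf4 and Tet2 2 each and Tfcp2l1 1. Dppa3, Nr5a2 and Nr0b1 had none. All 8 of the 12 h lists were present at 5 of the 6 regions of the core list and 31 of the 41 of the naive list (75.6%), near the 78.0% of all distal regions. The nearest gene need not be the target of a region. Long intergenic stretches around a gene also raise its count.

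The LIF pathway was represented by 7 of 10 genes. They include the receptor subunits Lifr and Il6st, the kinase Jak1, the feedback inhibitor Socs3 with 4 regions, and the targets Pim1, Pim3 and Bcl3, but not Stat3 itself. All 11 of their regions held all 8 of the 12 h lists, against 78.0% of all distal regions. Across the gene lists this share ran from 64.7% (Nodal and BMP) to 100% (LIF, and CTCF and cohesin genes). The strongest LIF region, 38003 bp from Pim1 at chr17:29447994-29452750, had a mean 0 h rank of 90.1. Of FGF and ERK genes 6 of 10 had a region, led by Etv5 with 4, and of Wnt genes 7 of 12, led by Tcf7l1 with 6 and Tcf7l2 with 5. Both encode TCF factors that bind β-catenin. In these lists the region with the highest rank was at Etv5 (chr16:22392554-22419078, mean 0 h rank 94.9) and at Sp5 (chr2:70338996-70341443, mean 0 h rank 88.2).

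The other lists, among them one of pluripotency genes, were closer to the background. Formative and primed factors had 4 of 11 genes, with Foxd3 strongest (mean 0 h rank 88.9), and pluripotency reporters and effectors 5 of 16, with Jarid2, a PRC2 partner, strongest (91.9). Lineage regulators had 3 of 18, namely Gsc, Foxa2 and Sox1, with Gsc strongest (80.4). Nodal and BMP genes had 2 of 12, but Smad7, an inhibitor of SMAD signalling, had 15 regions, more than any other gene. Of genes for remodelers and their partners 5 of 22 had a region, with Arid1b strongest (87.0) and none for Chd4, Chd8, Smarca4 or Smarca5. CTCF and cohesin genes had 3 of 12, with Pds5a strongest (78.9). With the nearest gene of any type in place of protein-coding ones, 1881 coding genes were left, or 8.66%, since a non-coding start site lay closer at 50.6% of the regions. The naive list then had 5 of 14 genes, the core list 1 of 4, LIF 3 of 10, FGF and ERK 3 of 10 and Wnt 2 of 12. Pluripotency reporters and effectors had 4 of 16, formative and primed factors 1 of 11 and lineage regulators 1 of 18. For Nodal and BMP, remodelers and partners, and CTCF and cohesin genes the counts were 2 of 12, 5 of 22 and 2 of 12.

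**Figure D5:**
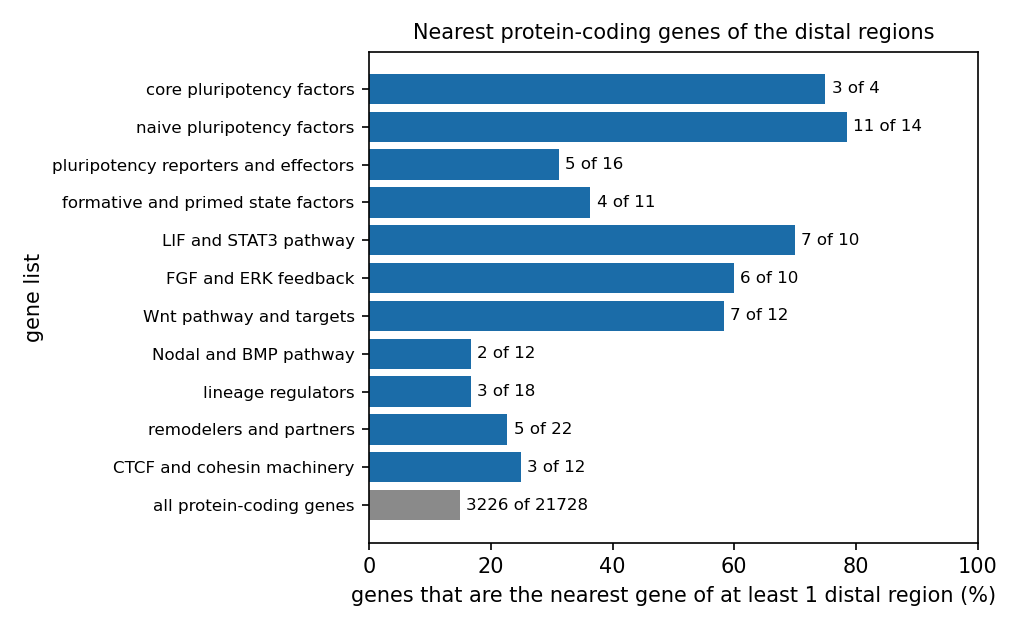
Share of the genes of 11 lists (x axis, %) that are the nearest protein-coding gene of at least 1 distal region, with the counts beside each bar; the grey bar is the share over all 21728 protein-coding genes, 14.8%. The naive pluripotency list has 11 of 14 genes and the lineage regulators have 3 of 18.

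The loci whose sequences are shown had these ranks. At Sox2 the region chr3:34743403-34748495, 92998 bp from the start site, had 0 h ranks of 92.6 and 86.4 for CHD4, 26.7 and 35.3 for CHD8, 97.9 and 95.8 for SMARCA4, and 88.9 and 90.7 for SMARCA5. At 12 h the ranks were 86.1 and 89.2, 65.6 and 39.4, 96.7 and 95.8, and 89.7 and 96.3 in the same order. CHD8 was the lowest of the 4 at both times, on ranks taken within lists of unlike length. At Esrrb, chr12:86462048-86467203, with its centre in an intron of the gene, had CHD8 ranks of 40.9 and 29.0 at 0 h and 54.9 and 69.9 at 12 h.

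At other loci CHD8 ranks were higher. At Klf4, chr4:55473547-55476466, 56000 bp from the gene, had CHD8 ranks of 72.8 and 75.2 at 0 h and 77.3 and 73.3 at 12 h, below every other library, which were at 95.4 or above. At Tbx3 the strongest of 10 regions, chr5:119373651-119375668, lay 295001 bp from the gene and had CHD8 ranks of 86.3 and 86.5 at 0 h and 87.95 and 88.2 at 12 h. At Sall4 the strongest region, chr2:168789462-168792302, lacked a SMARCA5 peak in 12 h replicate 1 but had one at rank 91.6 in replicate 2. It was 1 of 753 regions with 7 lists.

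The 10 distal regions with the highest mean rank at 0 h were nearest to Ptma, Slc2a3, Susd2, Grik3, Etnk1, Rtraf, Hs6st1, Slc44a3, Enah and Nlrp12, and all 10 held all 8 of the 12 h lists. Slc2a3 encodes the glucose transporter GLUT3, and its region, chr6:122757287-122773355, spans 16069 bp with its centre in an intron. The region assigned to Nlrp12, chr7:3207909-3215836, lies 2790 bp from Mir290a, the first of the microRNA cluster that is abundant in mouse stem cells. Its CHD4, SMARCA4 and SMARCA5 ranks were 99.3 or above in every library, and its CHD8 ranks were 84.97 and 84.4 at 0 h and 78.4 and 81.7 at 12 h. The Ptma and Susd2 regions ranked high for CHD8 as well. At Susd2, chr10:75647239-75651349 has its centre in an intron of Cabin1. There the fold enrichment given by the authors for CHD8 was 40.2 and 29.5 at 0 h and 35.1 and 26.3 at 12 h. The CHD8 ranks of this region were 98.1 or above in all 4 libraries.

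At the other end stood 4 distal regions with 3 of the 12 h lists and 27 with 4, of which the 6 with the highest mean 0 h rank are named. Their 12 h values were the reason for naming these 10, and all were narrower than the median region. Those nearest to Itsn1, Oacyl, Zfp157 and Mrps6 held 3 lists, and those nearest to Rad54b, Reep3, Gm21961, Capza3, Map4k4 and Slc13a4 held 4. At Itsn1, chr16:91735765-91737645 had no 12 h peak in either CHD4 or either CHD8 list, while SMARCA4 ranks were 81.6 and 83.6 at 0 h and 78.2 and 79.3 at 12 h. At Zfp157, chr5:138464075-138464731 spans 657 bp. It had SMARCA4 ranks of 58.8 and 49.7 at 0 h and no SMARCA4 or SMARCA5 peak in any 12 h list, and CHD8 remained at ranks of 1.79 and 3.87. None of the 10 held an SMC1A peak at 0 h. CHD8 was missing from both 12 h lists at 7 of these 10 and SMARCA4 at 2. SMARCA5 was missing from both at Oacyl, Zfp157, Gm21961 and Slc13a4, and CHD4 at Itsn1 and Capza3. Over all distal regions the shares were 1.68% for CHD8, 0.182% for SMARCA4, 1.84% for SMARCA5 and 0.567% for CHD4. Naming regions for few 12 h lists raises such counts.

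Distal regions came in groups at some loci. Within the distance commonly used to stitch enhancers into super-enhancers lay 1405 of them, or 28.5%, and 607 groups held 2 or more. The largest, chr6:145057436-145107109 beside Bcat1 and Lrmp, had 8 regions over 49.7 kb, and all 8 held all 12 h lists. The next were 7 regions at chr7:3191596-3229005, which include the one beside Mir290a, and 7 beside Qk, an RNA-binding protein gene, at chr17:10334530-10391143. In each of these, 5 of 7 held all 12 h lists. Groups of 6 lay at 3 loci, beside Vwf, beside Atf1 and Tmprss12 and, on chromosome 18, beside B4galt6. At Vwf and at Atf1 and Tmprss12, 4 of 6 held all 12 h lists.

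The thresholds of the choice cut through a continuum. The 3792 distal regions with 7 of 8 lists had a mean 12 h share of 86.3%, and the list they lacked was most often CHD8 replicate 2 (37.0%) or SMARCA5 replicate 1 (30.5%), which were the shortest list at 0 h of each of these remodelers. Regions with 8 lists and a start site 1 to 2 kb away had a mean of 97.1%, and those with one outside the region but within 1 kb had 96.3%. When all 12 h lists were put through the same rule, 6384 regions qualified. Of the 0 h regions 75.6% overlapped one of these, and of the 12 h regions 58.2% overlapped a 0 h one.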

How the data were processed

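Peak lists of 20 of the 30 samples were analysed, and the 10 inputs were not used here. The deposited lists have 10 columns in the narrowPeak layout, 1 list per sample, with no pooled replicates. The submitters' processing notes name Trim Galore, Bowtie2, MACS2 and deepTools, without versions, and the builds mm10 and hg38. No peak lay beyond a GRCm38 chromosome end, and GRCm38 with the GENCODE M21 basic annotation was used. The fold enrichment (a ratio to local background) and the −log10 p and −log10 q of each peak are the authors' own deposited values, and the columns were read by the layout and their values. The lists hold no read counts, so depth is unknown, and signal under the calling threshold is not seen. Remodeler lists held 40880 to 187294 peaks. There are 2 styles of peak name among the lists, which is all that marks a possible batch.

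Libraries were grouped by target and time from the labels. Regions, shares and motif counts were computed with Python 3.11.15, numpy 2.4.6 and scipy 1.17.1, and sequences were read from the RefSeq copy of GRCm38. Overlap needed 1 bp. The interval code gave the same counts as bedtools 2.31.1. The stratified permutation test was tried on simulated data, where it called 20 of 20 simulated falls of 10 points and 2 of 20 simulations with no change. Those calls used unadjusted p. The simulated libraries spread less than the measured pooled SD of 4.12 points and did not lie near the ceiling. The counts therefore do not give the power of the reported tests. Libraries were the units of the 5 permutation tests, with Benjamini-Hochberg adjustment over the 5. The sign-flip tests took the 2 libraries of a remodeler as independent. The threshold of 0.05 was applied to adjusted p. This reading was settled after the values were known, and unadjusted p-values are printed too. Regions named are the 10 highest by mean 0 h rank, the 10 with fewest 12 h lists (ties by higher 0 h rank), the 5 largest groups (with a tie for the last), and, by gene list, all genes of the first 2 lists and the strongest region of the others. The window and ranks of 1 region of these lists are not reported here. Other genes and counts were named after their values were seen. The members, gene lists and motifs were chosen with earlier results of these data known. Alternatives covered stronger peaks, equal list lengths, other overlap rules and distances, other choices of regions, a replicate block, peak name style and leaving out each library.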

Additional observations from a re-analysis of the deposited data

How the results depend on the processing

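No adjusted p-value of the 5 tests was below 0.05 in the reported setting, and 2 alternatives passed: the distal minus promoter difference at 12 h was −1.85 points when a summit had to lie in the region (exact permutation p = 0.00781, adjusted p = 0.0391), and the difference in change was 3.02 points at regions chosen by the 6 lists of 12 h (exact permutation p = 0.0139, adjusted p = 0.0391). On unadjusted p-values, the first passed in the reported setting and in 11 of 14 alternatives, the second in 8 of 30, the overall change in 2 of 30, the variance between remodelers in 1 of 14 and the rank difference in 0 of 14. The first turned to +0.489 with −log10 q of at least 5, and its test took the 2 libraries of a remodeler as independent. The mean 12 h share was 87.2% with equal list lengths and 85.6% over the central 200 bp. The SMC1A share was 3.79% with stronger peaks, and nearest genes numbered 1881 with any gene type.

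Leaving out each library in turn gave 95.5% to 96.7% for the mean 12 h share, 2.66 to 5.03 points for the change, −1.83 to −0.936 (the latter without CHD8 12 h replicate 2) for the difference at 12 h, −4.32 to 0.794 for the rank difference (0.371 and 0.794 without CHD8 12 h replicates 1 and 2), 5.38 to 16.8 for the variance and 1.87 to 3.76 for the difference in change. The variance was 16.8 and 5.38 without SMARCA5 12 h replicates 1 and 2. Replicate numbers did not pair the libraries (correlations of replicate differences 0.07 for CHD4, 0.16 for CHD8, −0.26 for SMARCA4 and −0.01 for SMARCA5). With a replicate block the change of 3.83 points had an exact permutation p of 0.172 and the difference of 2.77 points one of 0.133, and crossing the SMARCA4 numbers, chosen after seeing the data, gave 0.164 and 0.141. Unknown depth limits every share, since a longer list holds more weak peaks; causes of these changes were not tested.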
